A study of Homo sapiens with 3 samples.

Results

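The genes described here are 33 known targets of the tumour suppressor p53, listed apart from its apoptosis targets and the cell cycle inhibitor p21. Being on this list does not exclude a role in cell death. The 33 genes were taken from a table of 57736 genes by symbol, and all were found, TIGAR under its older name C12orf5. RNA was sequenced from TOV21G, a human ovarian clear cell carcinoma line in which ARID1A, a chromatin remodelling gene, is mutated. There were 2 HDAC2 knockdown libraries, each from cells transduced with a lentivirus carrying a different short hairpin (shRNA 1 and shRNA 2), and 1 library of wild-type cells (WT). HDAC2 is a class I histone deacetylase, and all 3 libraries carry the ARID1A mutation of the line. The labels do not say whether WT cells received a control virus or whether the hairpin cells were pools or clones, so knockdown and transduction cannot be told apart. Nothing shows whether a hairpin library stands for several cultures. The p-values rest on the spread between the 2 knockdown libraries over all genes, since the lone WT library adds none. That spread may be technical and also holds any difference between the hairpins.

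p53 is a transcription factor that is kept scarce by the ubiquitin ligase MDM2 and accumulates after DNA damage and other stress. It binds pairs of a short decamer element near its target genes and raises their transcription. Besides p21 and the cell death genes, its targets serve growth restraint, DNA repair, deoxynucleotide supply, redox metabolism, autophagy and signalling at the cell surface.

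The libraries held between 10138479 and 11398791 counts. HDAC2 reached 33.4 CPM with shRNA 1 and 51.5 CPM with shRNA 2, against 105 CPM in WT, where CPM is the count scaled for library size and, by TMM scaling, for library composition. PAX8, a transcription factor gene of Müllerian tumours, had 2871 and 1969 counts against 2625 in WT, whereas NAPSA, a marker of clear cell carcinoma, had at most 4 in any library. Of 9 interferon-response genes tested 0 passed, by edgeR with or without removal of a trend in GC content, and 2 had an unadjusted p below 0.05 by edgeR. Their summed level was 259 and 224 CPM with shRNA 1 and shRNA 2, against 212 CPM in WT. Of the fibroblast markers COL1A2 rose, with 220 and 335 counts against 87 in WT, while COL3A1 and LUM had 0 counts in every library. The 6 fibroblast markers summed to 24.2 and 38.7 CPM against 15.6 CPM in WT, and the 6 leukocyte markers to 2.35 and 0.971 CPM against 3.81 CPM in WT. The part of these markers in the results below was not tested.

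The p53 binding consensus was searched in RefSeq promoter windows (GRCh38.p14) from 250 bases before to 50 bases after each transcription start, on both strands, since the decamer reads the same on either. Windows were given for 27 of the 33 genes; CMBL, FBXO22, GADD45A, PHLDA3, RRM2B and TP53INP1 had none. The sequences below are the closest pairs of decamers for the 3 members with at most 2 mismatches in a pair and for the 5 rising members with 3, a choice made after the calls were known. Decamers may lie up to 13 bases apart, and capitals mark positions 4 to 7 of each decamer, the core of the element.
DDB2 (chr11:47214979-47214999, plus strand): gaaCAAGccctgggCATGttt
AEN (chr15:88621306-88621325, plus strand): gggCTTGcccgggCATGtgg
FDXR (chr17:74872996-74873025, minus strand): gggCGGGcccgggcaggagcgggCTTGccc
GDF15 (chr19:18386186-18386205, plus strand): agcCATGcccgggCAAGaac
PLK2 (chr5:58460196-58460218, minus strand): agaCTTGcttcccggcCACGcgc
RPS27L (chr15:63157527-63157546, minus strand): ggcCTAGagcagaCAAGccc
SPATA18 (chr4:52051174-52051194, plus strand): agcCTAGccccaaaCTTCtat
ZMAT3 (chr3:179071867-179071892, minus strand): gggCCTGctccgccaagcaCATGcgc

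DDB2 alone among the members held a pair without a mismatch, starting at base 6 when the transcription start of that window is counted as the first base. Another DDB2 window, of a start farther upstream, had 4 mismatches in its closest pair. An exact single decamer stood in windows of 5 of the 27 members (18.5%), namely AEN, DDB2, FDXR, PLK2 and RPS27L, and in those of 8.06% of 27305 genes. A pair with at most 2 mismatches was found for 3 members (11.1%) and for 9.53% of all genes, and with at most 3 for 13 members (48.1%) and 44.2% of all genes. The shares of pairs were thus close to those of all genes. p53 elements often lie in introns or farther upstream, and a window without a match says only that these letters are not in it.

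Against WT, 11 of the 32 p53 targets with enough counts to test rose, 1 fell and 20 did not pass by the quasi-likelihood test of edgeR, Benjamini-Hochberg adjusted over all 14524 genes tested. The rising share of 34.4% stood beside 3.96% of all tested genes, and the falling share of 3.12% beside 3.76%; in either direction 7.72% of all genes passed. By DESeq2's Wald test 7 of the 26 members with an adjusted p rose (1.81% of all genes with one). The 11 were ZMAT3, TP53INP1, GADD45A, RRM2B, TIGAR, TRIAP1, GDF15, RPS27L, PLK2, SPATA18 and BTG2, at log2 changes between 0.61 and 1.71, and TP53I11 fell. Of these calls BTG2, TRIAP1, SPATA18 and TP53I11 did not pass by DESeq2 (adjusted p = 0.174, 0.0863, 0.284 and 0.296). GADD45A had no adjusted p there. The median log2 change of the 32 was 0.42, and that of all tested genes 0.01. Both hairpin libraries lay above WT for 25 members (39.9% of all tested genes did so) and both lay below it for 3 (39.3%), NINJ1, DDB2 and TP53I11. The lowest count of a tested member in any library was 49, so the filter on low counts removed EDA2R alone among the members, but the calls depended on the filter. With no filter 0 members rose and 0 fell (13 at an unadjusted p below 0.05, edgeR), and with a mean count of at least 50 for all genes tested 10 rose and 0 fell. EDA2R, a receptor of the tumour necrosis factor receptor family, had 0 counts in all 3 libraries, which allows up to 0.261 and 0.265 CPM with shRNA 1 and shRNA 2 and up to 0.301 CPM in WT (3 counts, counting error only).

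**Figure D1:**
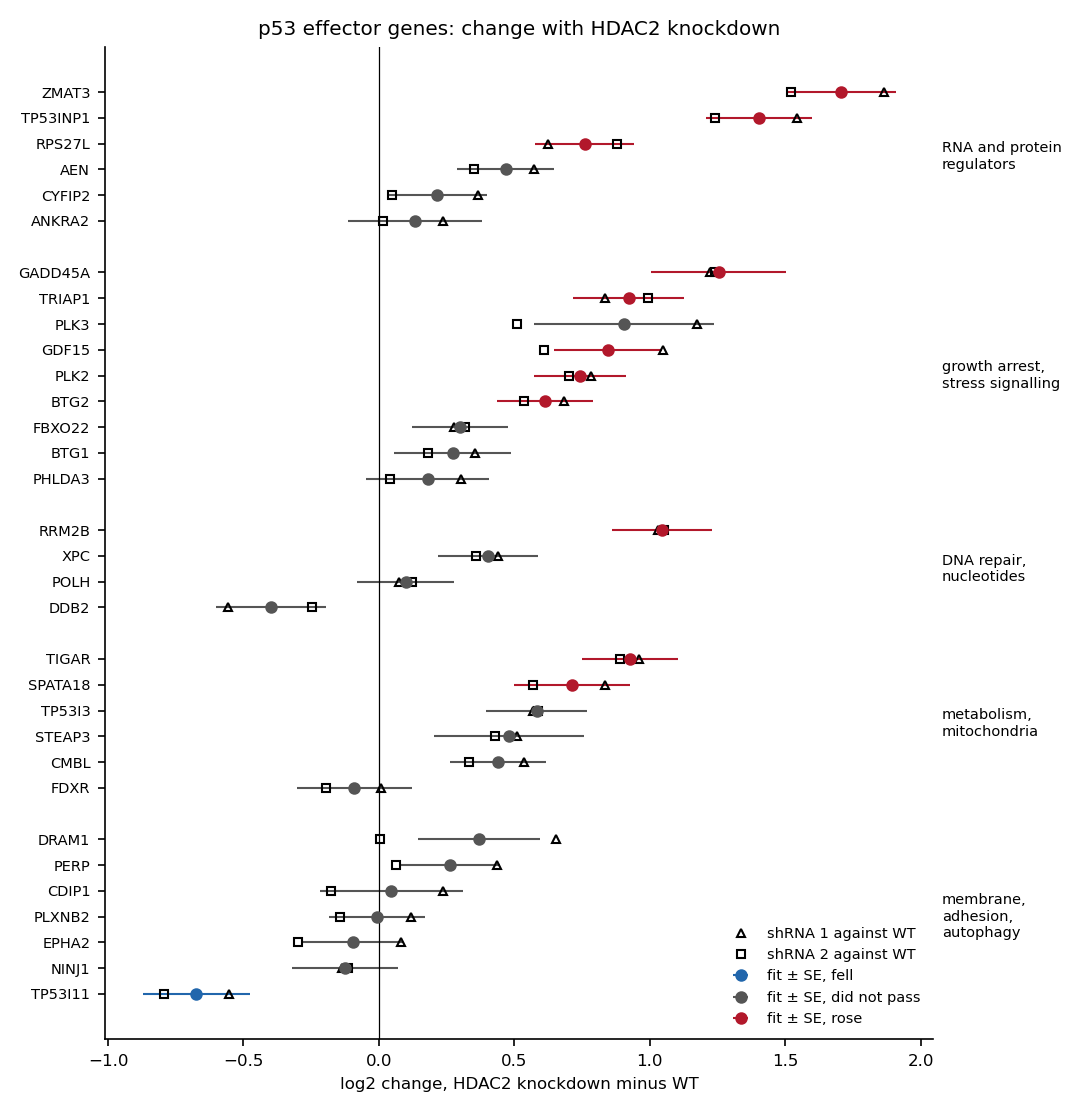
log2 change of each tested p53 target, HDAC2 knockdown minus WT, by role. Filled circles are the fit over all 3 libraries with its SE, coloured by call, and open triangles and squares are shRNA 1 and shRNA 2 against WT as differences of log2 CPM, computed with 2 counts added as a prior. The 11 rising genes lie between 0.61 and 1.71, and 0 of the 7 genes of the membrane group are among them (3.96% of all tested genes rose).

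The RNA-binding, ribosomal and other intracellular regulators held the strongest rises. ZMAT3, a zinc finger protein that binds RNA and regulates splicing and transcript stability, had 2567 counts with shRNA 1 and 1996 with shRNA 2, against 611 in WT. Its level was 224 and 176 CPM against 61.2 CPM in WT, or 365% and 288% of WT, so that both knockdown libraries lay far above WT. The log2 change was 1.71 ± 0.20 (SE; adjusted p = 5.65e-05, edgeR), the 12th smallest p-value of all genes tested.

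TP53INP1, a stress-induced nuclear protein that also acts in autophagy, had 1181 and 943 counts in the knockdown libraries against 351 in WT. It averaged 93.1 ± 13.9 CPM (SD, n = 2) in knockdown cells against 35.2 CPM in WT. It stood at 293% and 237% of the WT level, a log2 change of 1.40 ± 0.20 (SE; adjusted p = 0.000225, edgeR). RPS27L, a ribosomal-protein-like factor that binds MDM2, had 96.5 and 115 CPM against 62.5 CPM in WT, a log2 change of 0.76 ± 0.18 (SE; adjusted p = 0.0149, edgeR). It was higher with shRNA 2 than with shRNA 1, the opposite order to ZMAT3 and TP53INP1.

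The remaining genes of this group did not pass. AEN, a nuclease, had 80.6 and 69.1 CPM against 54.1 CPM in WT (log2 change 0.47 ± 0.18, SE; adjusted p = 0.116, edgeR). CYFIP2, a subunit of the actin-regulating WAVE complex, had 149 and 119 CPM against 115 CPM, and the ankyrin repeat protein ANKRA2 12.2 and 10.4 CPM against 10.3 CPM. In both of these shRNA 2 was close to WT. In all 3 of the group passed upwards (3.96% of all tested genes did) and 3 did not.

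Genes of growth arrest and stress signalling rose in 5 of 9 cases, beside 3.96% of all tested genes. GADD45A, a damage-induced protein that binds the replication clamp PCNA, had 180 counts in each knockdown library against 66 in WT. That is 15.7 and 15.9 CPM against 6.61 CPM, equal between hairpins and well above WT, with a log2 change of 1.25 ± 0.25 (SE; adjusted p = 0.00400, edgeR). TRIAP1, a small protein of mitochondrial lipid transfer with a pro-survival role, had 34.8 and 38.9 CPM against 19.4 CPM in WT (log2 change 0.92 ± 0.20, SE; adjusted p = 0.00860, edgeR).

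GDF15, a secreted stress cytokine of the TGF-beta superfamily, had 160 CPM with shRNA 1 and 118 CPM with shRNA 2, against 77.3 CPM in WT. It was higher in both than in WT but unequal between hairpins, with a log2 change of 0.85 ± 0.20 (SE; adjusted p = 0.0125, edgeR). PLK2, a polo-like kinase of the stress response, had 4691 and 4375 counts against 2369 in WT, the highest counts of any member. It was 1.67-fold higher (log2 change 0.74 ± 0.17, SE; adjusted p = 0.0106, edgeR).

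BTG2, an antiproliferative adaptor of the CCR4-NOT deadenylase, had 86.9 and 78.3 CPM against 54.0 CPM in WT (log2 change 0.61 ± 0.18, SE; adjusted p = 0.0383, edgeR). Its paralog BTG1 had 23.1 and 20.5 CPM against 18.0 CPM and did not pass (log2 change 0.27 ± 0.22, SE; adjusted p = 0.478, edgeR). The difference between the paralogs was not tested, and BTG1 shares 6.19% of its 75-base sequences with other genes. PLK3, the relative of PLK2, had 130 and 80 counts against 49 and missed the threshold (log2 change 0.90 ± 0.33, SE; adjusted p = 0.102, edgeR). Its estimate was larger than that of PLK2, with a larger SE, and the change was 1.18 with shRNA 1 but 0.51 with shRNA 2. FBXO22, a subunit of a ubiquitin ligase, stood at 121% and 125% of WT and PHLDA3, an inhibitor of AKT, at 124% and 103%; neither passed. PHLDA3 is uncertain because 14.5% of its 75-base sequences also occur in other genes, and a gene on the same strand overlaps its exons.

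**Figure D2:**
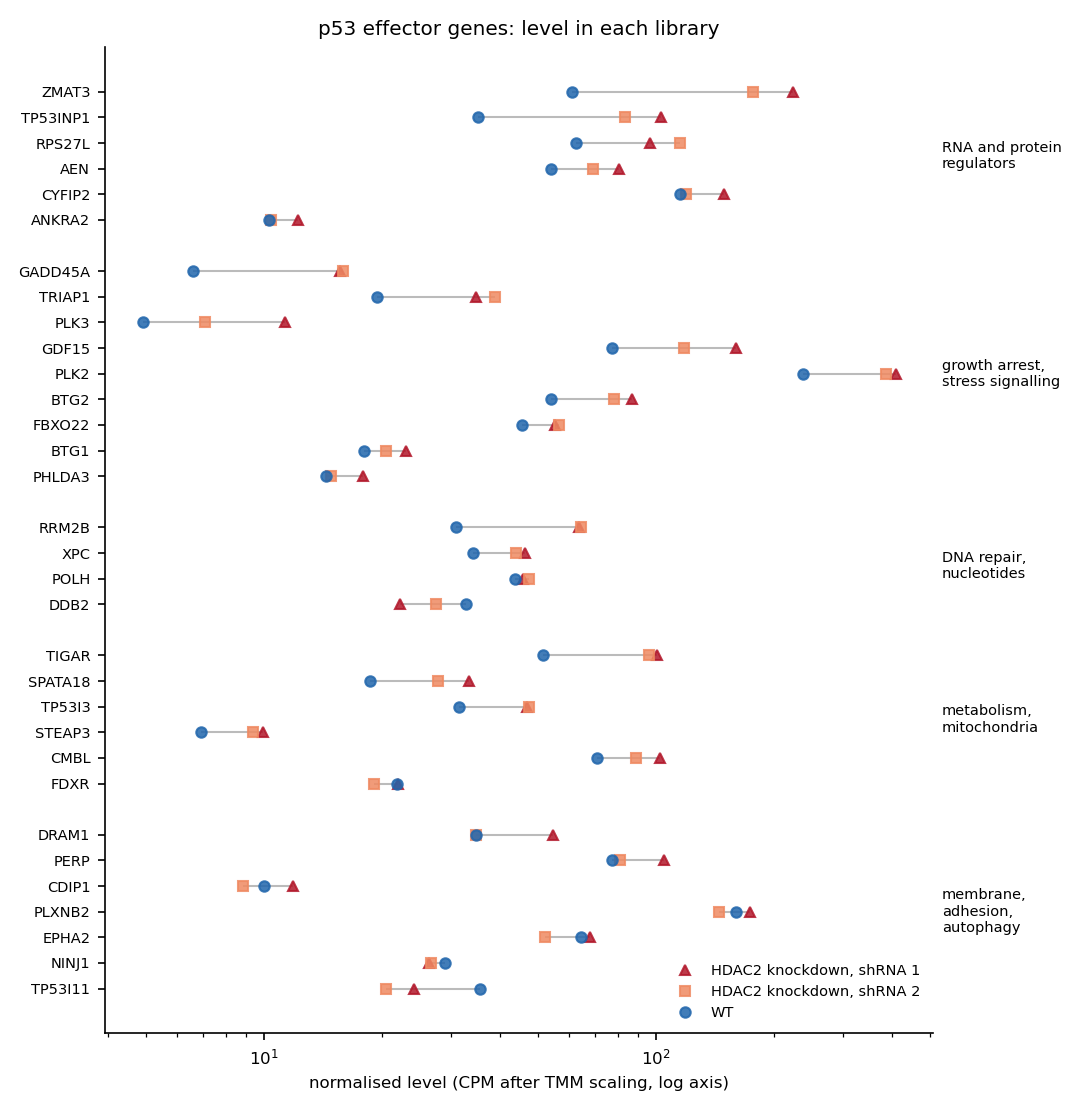
Normalised level (CPM after TMM scaling, log axis) of each tested p53 target in the library of shRNA 1 (triangles), shRNA 2 (squares) and WT (circles), by role. ZMAT3 and TP53INP1 show the widest gaps to WT, while CDIP1, PLXNB2, FDXR and EPHA2 have WT between the 2 knockdown libraries.

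Among DNA repair and deoxynucleotide supply genes 1 of 4 rose, beside 3.96% of all tested genes. RRM2B, the p53-inducible small subunit of ribonucleotide reductase, had 729 counts in each knockdown library against 309 in WT. It stood at 205% and 208% of WT, with a log2 change of 1.05 ± 0.18 (SE; adjusted p = 0.00167, edgeR). The nucleotide excision repair genes did not pass and lay on opposite sides of WT. XPC, the damage sensor, had 46.4 and 43.9 CPM against 34.2 CPM in WT (log2 change 0.40 ± 0.18, SE). DDB2, which recognises ultraviolet lesions, had 22.2 and 27.6 CPM against 32.8 CPM in WT (log2 change −0.40 ± 0.20, SE; adjusted p = 0.246, edgeR). DDB2 was thus lower than WT in both libraries, and a window of this gene carries the exact pair of decamers shown above. POLH, a translesion polymerase, was within 10% of WT with either hairpin, at 105% and 109%.

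Of 6 genes of metabolism, redox reactions and mitochondria 2 rose, beside 3.96% of all tested genes. TIGAR, a phosphatase that lowers fructose-2,6-bisphosphate and so restrains glycolysis, had 1154 and 1084 counts against 515 in WT, about equal between hairpins. Its log2 change was 0.93 ± 0.18 (SE; adjusted p = 0.00323, edgeR), and it is uncertain because 41.9% of its 75-base sequences also occur in an overlapping gene on the same strand. SPATA18, a mitochondrial quality control protein, had 383 and 314 counts against 186 in WT (log2 change 0.71 ± 0.21, SE; adjusted p = 0.0462, edgeR). This call was lost with RLE or upper quartile scaling (adjusted p = 0.0547 and 0.0557, edgeR), with a mean count of at least 50 (0.0651), with the GC trend removed (0.169) and by DESeq2 (0.284).

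TP53I3, a quinone oxidoreductase, had 537 counts in each knockdown library against 314 in WT and just missed the threshold (log2 change 0.58 ± 0.19, SE; adjusted p = 0.0587, edgeR). CMBL, a hydrolase, had 103 and 89.1 CPM against 70.7 CPM, and STEAP3, a metalloreductase, 9.93 and 9.36 CPM against 6.91 CPM; neither passed, though both lay above WT with each hairpin. FDXR, the mitochondrial ferredoxin reductase, had 22.0 and 19.1 CPM against 21.8 CPM in WT. It therefore straddled the WT level.

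The genes of the cell surface, adhesion and autophagy contained 0 rises among 7 tested by edgeR, where 3.96% of all tested genes rose. At an unadjusted p below 0.05 (edgeR) 0 were higher, against 12.4% of all tested genes. By DESeq2 0 of the 6 with an adjusted p rose, against 1.81% of all genes with one. In a group of 7, a count of 0 is near these shares. The group's median log2 change was −0.01. TP53I11 was the member that fell, with 278 and 232 counts against 356 in WT, or 67.9% and 57.4% of the WT level. The log2 change was −0.67 ± 0.20 (SE; adjusted p = 0.0419, edgeR). DRAM1, a lysosomal membrane protein of autophagy, had 628 counts with shRNA 1 and 394 with shRNA 2, against 346 in WT. In CPM it stood at 158% and 100.4% of WT, so that it was above WT with 1 hairpin and level with it with the other, and it did not pass. PERP, a junction protein of desmosomes, stood at 135% and 104% of WT in the same order. CDIP1, the semaphorin receptor gene PLXNB2 and the ephrin receptor gene EPHA2 lay above WT with shRNA 1 and below it with shRNA 2. NINJ1, which acts in plasma membrane rupture, stood at 90.9% and 92.4% of WT with shRNA 1 and shRNA 2. Whether this group differed from the other role groups was not tested.

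Per length of the longest annotated transcript, scaled to the same total in each library as TPM is, PLK2 and GDF15 had the highest levels of the members. PLK2 had 295 and 272 in the knockdown libraries against 164 in WT, and GDF15 had 285 and 205 against 132 in WT. ZMAT3 had 50.7 and 39.0 against 13.3 in WT, and TP53INP1 38.9 and 30.8 against 12.7 in WT. The lowest detected member was STEAP3, at 4.97 and 4.57 against 3.31 in WT. The longest transcript need not be the one these cells use, which limits the comparison between genes.

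The members' median log2 change was 0.52 with shRNA 1, the hairpin that left less HDAC2 RNA, and 0.34 with shRNA 2. In 23 of 32 members the library of shRNA 1 was higher than that of shRNA 2, against 49.8% of all tested genes. The widest gaps were 0.67 for PLK3, 0.65 for DRAM1 and 0.44 for GDF15 (log2, shRNA 1 minus shRNA 2), and RPS27L and DDB2 were lower with shRNA 1, at −0.26 and −0.31. GADD45A, RRM2B, TP53I3 and NINJ1 differed by less than 0.03 between the hairpins. With 1 library per hairpin there is no test of these differences, and both comparisons share the WT library.

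**Figure D3:**
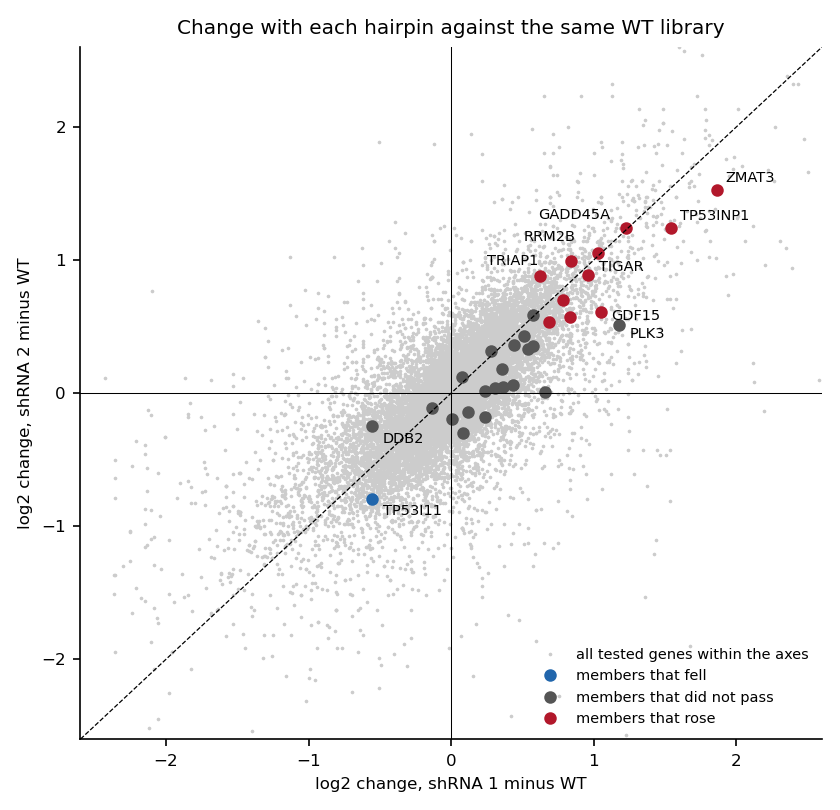
log2 change of all tested genes within the axes (grey) and of the p53 targets (coloured by call) with shRNA 1 (x axis) and with shRNA 2 (y axis), each minus the same WT library. The shared WT library by itself places points along the dashed line of equal change; PLK3 and GDF15 lie below the line and TRIAP1 above it.

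Of 71 further genes of the p53 pathway, listed as regulators of p53, apoptosis targets, and arrest and other targets, 63 were tested, 9 rose (14.3%) and 3 fell (4.76%), with a median log2 change of 0.14. Of 19 regulators MDM2 rose, with 6852 and 5990 counts against 2519 in WT (log2 change 1.16 ± 0.17, SE). Of 12 apoptosis targets the receptor genes FAS (log2 change 0.59), TNFRSF10B (0.71) and TNFRSF10D (0.88) rose, and SIVA1 fell by 0.91. Their relatives TNFRSF10A and TNFRSF10C, at log2 changes of 0.41 and −0.76, did not pass (adjusted p = 0.478 and 0.454, edgeR). TNFRSF10C is uncertain, with 14 and 17 counts against 23 in WT and an SE of 0.57. In addition, 31.9% of its 75-base sequences also occur in other genes. Of 32 arrest and other targets CDKN1A (the p21 gene), KITLG, SESN1, TMEM68 and FAM210B rose, at log2 changes of 1.53, 1.21, 1.06, 0.69 and 0.64, and SFN and GTSE1, genes of the G2 phase, fell by 0.67 and 1.14. With the GC trend removed 5 of the 9 rises and 2 of the 3 falls passed, without FAS, TNFRSF10D, TMEM68, FAM210B and SFN. The difference between these lists and the 33 effectors was not tested.

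**Figure D4:**
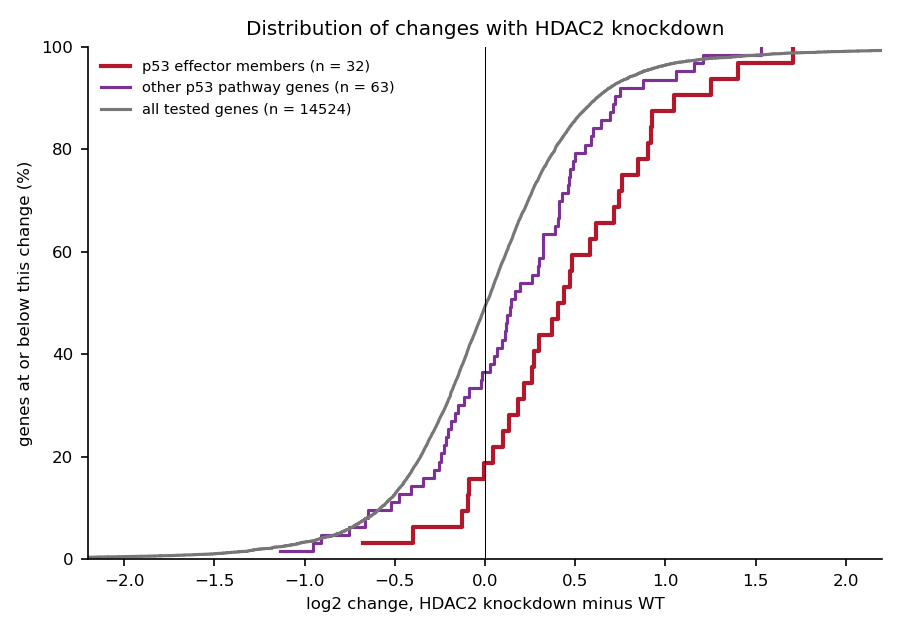
Cumulative share of genes (y axis, %) at or below each log2 change, HDAC2 knockdown minus WT (x axis), for the 32 tested p53 effector targets, 63 other p53 pathway genes and all 14524 tested genes. The medians are 0.42, 0.14 and 0.01.

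Changes across the whole table varied with the GC content of the transcripts. The median log2 change was 0.29 in the 3531 genes with the lowest GC content (up to 41.9%), of which 10.7% rose, and −0.26 in the 3531 with the highest (55.8% and above), of which 0.481% rose. ZMAT3, TP53INP1 and RRM2B, at 39.5%, 39.6% and 36.4% GC, were the 3 rising members of 6 tested in the first set. GDF15, at 62.9%, was the rising member of 11 tested in the second. With the trend of all genes removed, 7 members rose and 0 fell (0.874% and 1.56% of all tested genes), and the members' median log2 change was 0.47. ZMAT3, TP53INP1, GADD45A, TIGAR, GDF15 and PLK2 remained among the 7, and TP53I3 joined them (log2 change 0.81 ± 0.16, SE; adjusted p = 0.0384, edgeR).

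The calls of RRM2B, TRIAP1, RPS27L, SPATA18, BTG2 and TP53I11 were lost with the trend removed, at log2 changes of 0.69, 0.79, 0.62, 0.60, 0.67 and −0.43. The prior of that fit was 8.32 degrees of freedom, against 18.95 without the removal. The part of this prior in the lost calls was not tested. BTG2's estimate was larger with the trend removed than without it, and GDF15's grew to 1.13.

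**Figure D5:**
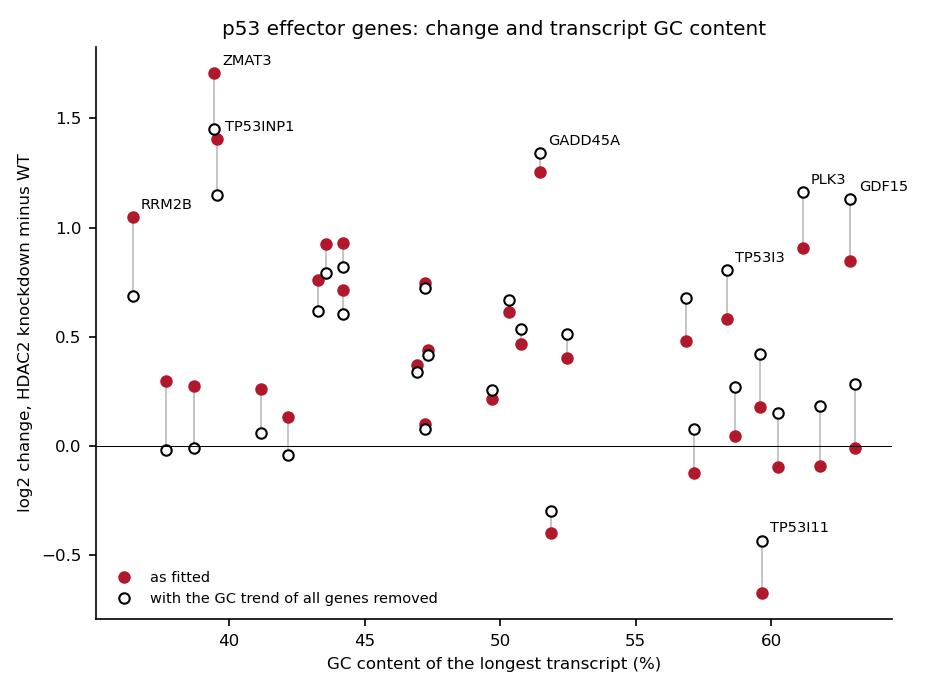
log2 change, HDAC2 knockdown minus WT (y axis), of each tested p53 target against the GC content of its longest transcript (x axis, %), as fitted (filled) and with the GC trend of all genes removed (open). ZMAT3, TP53INP1 and RRM2B move down and PLK3, TP53I3 and GDF15 move up when the trend is removed.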

How the data were processed

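Total RNA was made into libraries with a ScriptSeq Gold kit and sequenced as 75 bp reads, per the labels' protocols. The deposited table held the authors' estimated counts, 1 whole number per Ensembl gene and library; RSEM 1.2.3, edgeR and hg19 are named, with no step given to each, per the submitters' processing notes. Use of strand in counting is not stated in these sources, so members with exons overlapping another gene on the opposite strand may hold its reads (ANKRA2, BTG1, CYFIP2, DRAM1, FBXO22, PLK3, POLH, STEAP3, TIGAR, TP53I11, TP53I3 and XPC).

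Knockdown (n = 2) was compared with WT (n = 1) by edgeR's quasi-likelihood test (edgeR 4.0.16, R 4.3.3) with TMM scaling, filterByExpr and an adjusted p below 0.05. It has 1 residual degree of freedom plus a prior of 18.95 learned over all genes, and assumes that the lone WT library varies as the others do. SEs were derived from the estimate and F statistic. The code was tested on simulated data. GC content, length and shared 75-base sequences came from GENCODE 29; the GC trend was removed as a lowess curve per library on the GC content of the longest transcript. The alternatives included DESeq2 1.42.0. Members, gene lists and the GC alternative were chosen with earlier results of these data known. All 33 members were named, and of the other p53 lists those past the test.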

Additional observations from a re-analysis of the deposited data

How the results depend on the processing

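With no filter on low counts 0 genes rose and 0 fell (edgeR, smallest adjusted p = 0.468; 2486 at an unadjusted p below 0.05), 0 members (13 at an unadjusted p below 0.05) and 0 other p53 genes rose or fell, and HDAC2, at −1.31, did not pass either; the prior then was 1.92 degrees of freedom. DESeq2's Wald test called 151 genes up and 155 down, 7 members up and 0 down, and 5 other p53 genes up and 1 down; GADD45A had no adjusted p there. With the GC trend removed 127 genes rose and 226 fell, 7 members rose and 0 fell, and 5 other p53 genes rose. Scaling by library size alone called 867 genes up, and with a mean count of at least 50 TP53I11 was lost, so 0 members fell. Apart from the unfiltered fit, ZMAT3, TP53INP1, GDF15, TIGAR and PLK2 passed in each setting and GADD45A in each that gave an adjusted p. SPATA18 passed in 3 of 8, TP53I11 in 5. The sign was the same in every setting for 25 members; with the GC trend removed it reversed for BTG1 (−0.0095), FBXO22 (−0.019), ANKRA2 (−0.040), FDXR (0.18), NINJ1 (0.078), PLXNB2 (0.28) and EPHA2 (0.15), and for PLXNB2 also with library size alone (0.027). None of these passed. The cause of these differences was not tested. Leaving out 1 knockdown library gave a member median between 0.34 and 0.52, and between 25 and 29 members above WT, with no test. No paired analysis was possible because there is 1 WT library, so the groups share fewer than 2 replicate numbers. At this depth and with 1 WT library, SEs of member changes were between 0.17 and 0.33.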

Other observations

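The 3 members whose promoter windows held the closest pairs of p53 decamers, DDB2, AEN and FDXR, were not among the 11 that rose, at log2 changes of −0.40, 0.47 and −0.09. Of the 8 rising members with a window, 0 held a pair with at most 2 mismatches, where 9.53% of all genes did. In a group of 8, a count of 0 is near this share. A pair with 3 mismatches was held by 5 of the 8, and 44.2% of all genes held one with at most 3. An exact single decamer stood in windows of 2 of the 8, PLK2 and RPS27L. It stood in those of 3 of the 17 members that did not pass and of 8.06% of all genes. The contrast between closest pairs and calls was chosen after its values were seen, the numbers of genes are small, and no test was made.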
